A study of Mus musculus with 14 samples.

Results

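The 43 genes described here encode products of megakaryocytes and platelets (23 genes) and of red cells and their precursors (20 genes). They were listed by symbol, with earlier results of these data known, and all 43 were found among the 50686 genes of the deposited tables. After a filter on low counts 31 of them could be tested, all 23 of the megakaryocyte and platelet list and 8 of 20 of the erythroid list.

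RNA was sequenced from 14 libraries of mouse HPC-LSK lines, cultured mouse progenitor lines named for the LSK cells of bone marrow, which lack lineage markers and carry Sca-1 and Kit. All lines were on a C57BL/6N background, and the comparisons ask how lines without Cdk6, a cyclin D-dependent kinase, differ from wild-type lines before and after transformation by BCR-ABL p210, the fusion kinase of chronic myeloid leukaemia. The groups were KO p210 (Cdk6 knockout, transformed with BCR-ABL p210, 4 libraries), WT p210 (Cdk6 wild type, transformed with BCR-ABL p210, 3 libraries), KO untransformed (Cdk6 knockout, 3 libraries) and WT untransformed (Cdk6 wild type, 4 libraries). Untransformed cells received 12.5 ng/ml IL-6 and 2% SCF in the medium and p210 cells neither, so transformation and medium changed together and cannot be told apart. SCF is nevertheless written in the p210 descriptions, and what it means there is not explained. The labels give neither the exons that the knockout allele lacks nor whether replicates were separate derivations or cultures of 1 line, so the p-values rest on how far these libraries differ and may reflect technical spread. Each description also holds 1 of 2 codes, the first on replicates 1 and 2, the second on the others. Together with a letter the code was read as naming a cell line, and by that reading 3 lines of each genotype appear both with and without p210.

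Total counts were 20270348 to 50303271 per library, and 18105 to 20689 genes had counts. Cdk6 itself stood at 325, 577, 245 and 163 CPM (counts scaled for library size) in KO p210 libraries, 576, 606 and 597 CPM in WT p210, 271, 257 and 236 CPM in KO untransformed and 969.7, 999, 1212 and 1305 CPM in WT untransformed libraries. The library labelled KO p210 replicate 2 lay inside the WT p210 range, which puts its label in doubt. Every KO library kept Cdk6 reads, and the exons that the allele lacks are not given, so this level cannot settle the label. Of the progenitor markers, Ly6a (Sca-1) was at 29.1, 11.8, 0.553 and 2.07 CPM in KO p210, 13.9, 10.3 and 13.9 CPM in WT p210, 26.8, 26.4 and 42.2 CPM in KO untransformed and 44.7, 112, 36.7 and 13.6 CPM in WT untransformed libraries. Cd34 was present throughout, Kit was at 14.9 to 42.7 CPM in KO p210, 35.5 to 59.1 CPM in WT p210, 247 to 276 CPM in KO untransformed and 359.8 to 471 CPM in WT untransformed libraries, and Flt3 and Slamf1 were under 1 CPM in every KO p210 library.

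Megakaryocytes arise from progenitors shared with the red cell lineage and shed platelets, which bind von Willebrand factor through the glycoprotein Ib-IX-V complex, fibrinogen through the integrin of Itga2b and Itgb3, and collagen through glycoprotein VI. Their granules store adhesive proteins and chemokines. Red cell precursors instead make globins, haem and a membrane skeleton of spectrin and ankyrin, and both lineages depend on GATA1 with FOG-1 (Zfpm1). Several members, among them Itga2b, Fli1 and Pf4, are also transcribed in uncommitted progenitors.

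The promoter windows of the 4 subunits of the glycoprotein Ib-IX-V complex are shown so that genes whose products act together can be compared, with those of Itga2b, which stayed abundant in every group, and of Icam4, an erythroid member. Each runs 5′ to 3′ from 250 bases before to 50 bases after the start that RefSeq gives on GRCm38.p6. Capitals mark AGATAA or TGATAA (the GATA motif), CACCC (the KLF motif), and ACAGGAA or CCGGAA (the ETS motif), or the reverse complement of any of these. The windows are Gp1ba (chr11:70638872-70639171, plus strand), Gp1bb (chr16:18622354-18622653, minus strand), Gp5 (chr16:30310732-30311031, minus strand), Gp9 (chr6:87777820-87778119, plus strand), Itga2b (chr11:102469834-102470133, minus strand) and Icam4 (chr9:21029182-21029481, plus strand).
Gp1ba: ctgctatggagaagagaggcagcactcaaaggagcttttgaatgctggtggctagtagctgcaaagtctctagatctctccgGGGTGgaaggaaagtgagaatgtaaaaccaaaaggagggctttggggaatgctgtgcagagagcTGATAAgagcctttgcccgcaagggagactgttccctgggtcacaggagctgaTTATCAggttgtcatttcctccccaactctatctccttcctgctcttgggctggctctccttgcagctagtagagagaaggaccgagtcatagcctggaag
Gp1bb: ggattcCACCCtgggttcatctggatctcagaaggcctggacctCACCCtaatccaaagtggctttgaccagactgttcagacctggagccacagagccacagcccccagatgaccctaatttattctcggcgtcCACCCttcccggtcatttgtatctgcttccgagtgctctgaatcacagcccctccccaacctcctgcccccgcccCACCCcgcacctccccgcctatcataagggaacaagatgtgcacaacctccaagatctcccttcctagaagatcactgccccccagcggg
Gp5: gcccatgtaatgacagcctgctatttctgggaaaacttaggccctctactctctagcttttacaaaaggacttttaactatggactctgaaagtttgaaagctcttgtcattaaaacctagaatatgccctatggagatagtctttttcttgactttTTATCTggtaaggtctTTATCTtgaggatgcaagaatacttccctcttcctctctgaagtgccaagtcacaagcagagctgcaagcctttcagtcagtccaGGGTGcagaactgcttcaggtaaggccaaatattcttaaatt
Gp9: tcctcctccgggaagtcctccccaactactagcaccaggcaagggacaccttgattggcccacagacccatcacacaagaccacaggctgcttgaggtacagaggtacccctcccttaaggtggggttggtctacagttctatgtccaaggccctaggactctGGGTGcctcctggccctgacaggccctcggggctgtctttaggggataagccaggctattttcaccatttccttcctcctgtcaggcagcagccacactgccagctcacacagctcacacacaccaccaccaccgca
Itga2b: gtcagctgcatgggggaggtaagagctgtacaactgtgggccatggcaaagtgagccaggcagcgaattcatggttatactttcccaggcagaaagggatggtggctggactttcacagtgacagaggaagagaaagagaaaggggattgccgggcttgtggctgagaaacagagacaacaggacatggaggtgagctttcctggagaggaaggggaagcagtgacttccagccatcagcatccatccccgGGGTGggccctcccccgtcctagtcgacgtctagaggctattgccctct
Icam4: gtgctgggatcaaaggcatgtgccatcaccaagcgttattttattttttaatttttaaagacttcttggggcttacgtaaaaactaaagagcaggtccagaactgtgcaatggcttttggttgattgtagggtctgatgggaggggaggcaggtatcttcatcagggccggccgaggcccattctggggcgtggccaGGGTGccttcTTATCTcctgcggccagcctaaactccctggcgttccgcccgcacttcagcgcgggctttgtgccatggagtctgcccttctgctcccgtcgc

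The Gp1ba and Gp5 windows each held 2 GATA matches, while those of Gp1bb, Gp9 and Itga2b held none of these GATA letters. Windows were found for 17 megakaryocyte and platelet members, of which 6 (35.3%) held a GATA match, 11 (64.7%) a KLF match and 2 (11.8%) an ETS match. Of 17 windows of 16 erythroid members, 11 (64.7%) held a GATA match, 15 (88.2%) a KLF match and 1 (5.88%) an ETS match. Over 32851 windows of the same length the shares were 18.6% for GATA, 57.5% for KLF and 22.4% for ETS. A match is a run of letters and not a site of binding. No windows were matched for Vwf, Nfe2, Thbs1, Fli1, Itgb3, Car1, Car2, Ank1 and Slc4a1. Windows on chromosome 18 were left out for members, which excludes Rab27b, but were kept among the 32851.

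Across the 23 megakaryocyte and platelet members the mean level was highest in WT untransformed libraries for 17 and lowest in KO p210 libraries for 13. The shares of all genes tested with these orders were not counted, so the pattern may not be particular to these members. In CPM, 7 members (Gp1bb, Gp6, Gp9, Treml1, Mmrn1, P2ry12 and Tubb1) stood under 1 in every KO p210 library, against 2 in every WT p210 library (P2ry12 and Tubb1) and 1 in either untransformed group (P2ry12). At the other end, Pf4, Plek, Itga2b, Itgb3, Nfe2, Thbs1, Cd9 and Rab27b stayed above 100 CPM in all 4 KO p210 libraries. In TPM, which is per length and allows genes to be compared, Pf4 led with 2442 ± 815 in KO p210, 4429 ± 736 in WT p210, 1993 ± 606 in KO untransformed and 5555 ± 2758 in WT untransformed libraries (mean ± SD).

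**Figure D1:**
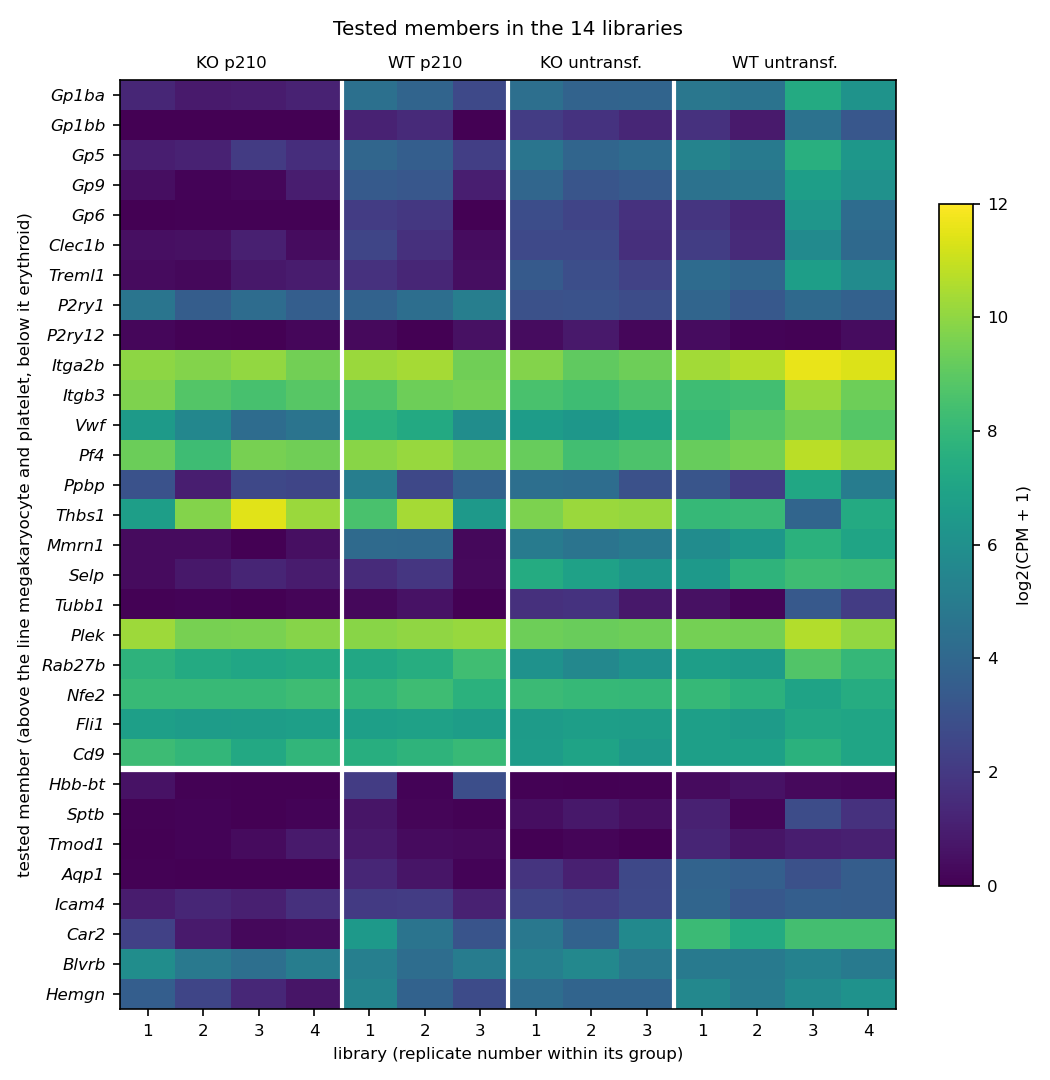
Heat map of log2(CPM + 1) for the 31 tested members (vertical axis, by role, the 23 megakaryocyte and platelet members above the line and the 8 erythroid members below it) in the 14 libraries (horizontal axis, by group and replicate number). Gp1ba, Gp1bb, Gp9, Gp6 and Mmrn1 are dark in the KO p210 libraries, Selp is dark in all p210 libraries, and P2ry12 is dark throughout, while Itga2b, Pf4 and Plek are bright in all groups.

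Counts of members past the test (edgeR's quasi-likelihood F-test, adjusted p under 0.05 over 14512 genes) were as follows. With KO against WT in p210 lines, 3 of 23 megakaryocyte and platelet members were lower and 0 were higher, where 3.56% of all genes tested were lower and 0.882% higher. With KO against WT in untransformed lines, 7 of 23 were lower and 0 higher, where 6.5% of all genes were lower and 8.73% higher. Their median log2 fold changes were -1.36 in p210 lines and -1.63 in untransformed lines, beside medians of 0.00 and -0.02 over all genes tested. Groups did not overlap, with KO lower, for 4 of 23 members in p210 lines (7.7% of all genes) and for 11 of 23 in untransformed lines (18.9% of all genes).

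With p210 against untransformed in KO lines, 9 of 23 were lower and 3 higher, where 18% of all genes were lower and 19.2% higher. In WT lines 8 of 23 were lower and 1 higher, where 17.6% of all genes were lower and 21.9% higher. In that fit, without a block, the share of higher members was below that over all genes in both genotypes, and the share of lower members above it. With the cell line as a block 5 of 23 were lower and 2 higher in KO lines, where 11.8% of all genes were lower and 12.9% higher. In WT lines under the block 2 of 23 were lower and 1 higher, where 11.4% of all genes were lower and 14.9% higher, so the share of lower members was no longer above that of all genes. In KO lines the calls lost under the block were Gp1bb (adjusted p = 0.147), Gp6 (0.105), Treml1 (0.0626), P2ry1 (0.0682) and Tubb1 (0.152). In WT lines they were Itga2b (adjusted p = 0.188), Gp1ba (0.216), Gp5 (0.0961), Gp9 (0.158), Vwf (0.123) and Mmrn1 (0.123). In bulk RNA, fewer cells of a kind and less RNA per cell cannot be told apart, and this holds for every difference below.

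**Figure D2:**
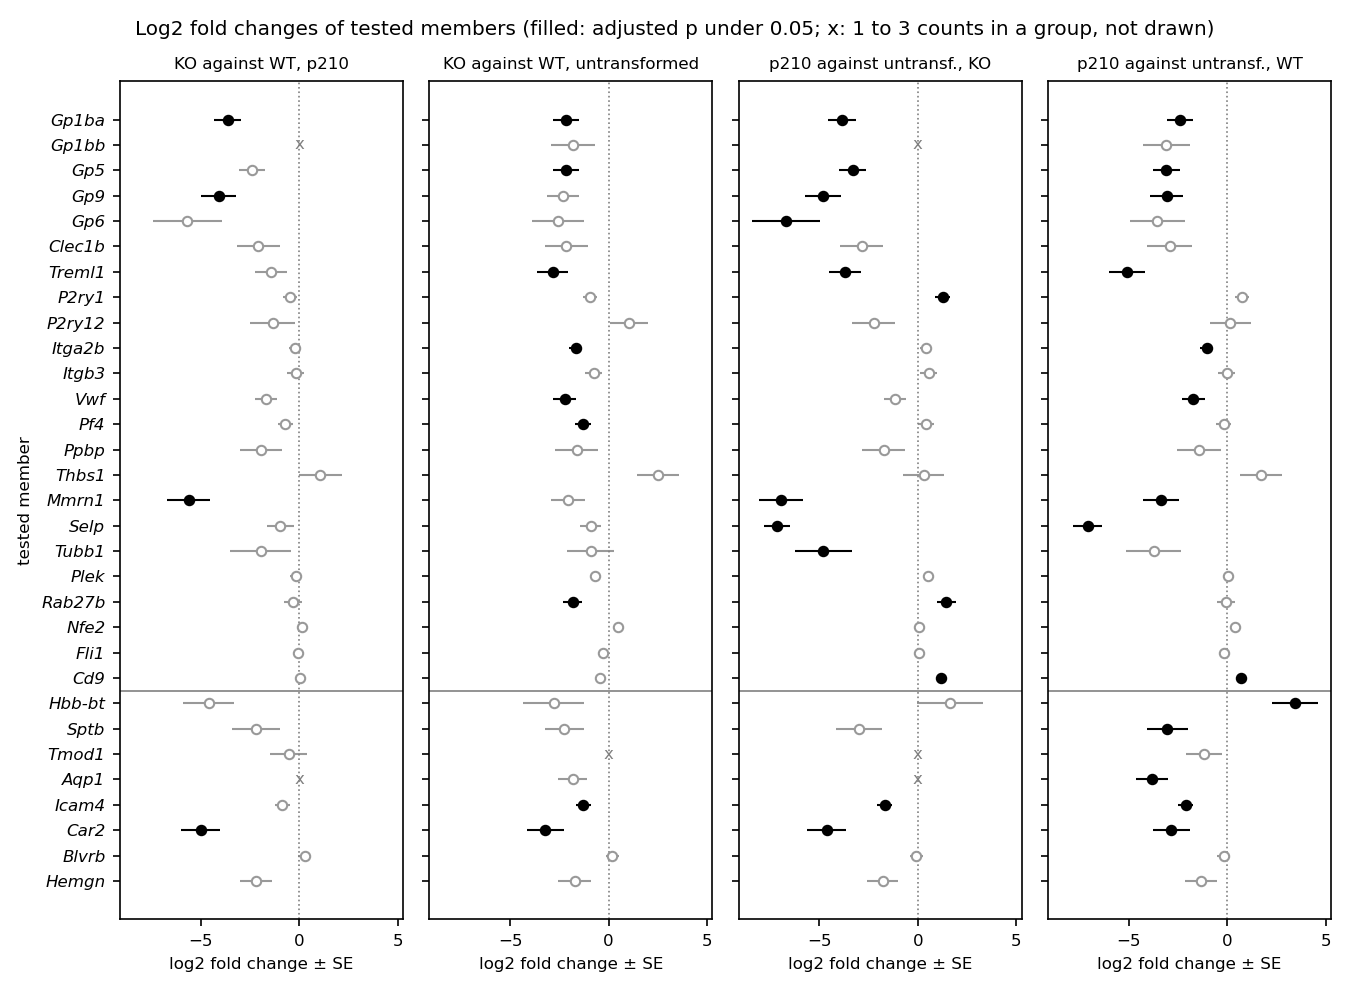
Log2 fold changes ± SE (horizontal axes) of the 31 tested members (vertical axis) in 4 comparisons, with filled points past an adjusted p of 0.05. Values left of 0 are lower in KO, or lower with p210, and members with 1 to 3 counts in a group are marked x and not drawn because their fitted fold depends on the prior count.

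The glycoprotein Ib-IX-V complex tethers platelets to von Willebrand factor. Its ligand-binding subunit Gp1ba (chromosome 11, 70639122 to 70642036, GRCm38) stood at 1.41, 0.811, 0.873 and 1.21 CPM in KO p210 libraries, against 20.8, 13.4 and 5.33 CPM in WT p210 libraries. It stood at 19.9, 13.05 and 13.5 CPM in KO untransformed libraries, against 26.3, 22.4, 161 and 71.9 CPM in WT untransformed libraries. KO lay below WT in both states with no overlap, WT p210 replicate 3 was the lowest of its group, and WT untransformed replicates 3 and 4 stood far above replicates 1 and 2. With KO, the log2 fold change was -3.63 ± 0.69 (SE) in p210 lines (adjusted p = 0.0135) and -2.18 ± 0.66 (adjusted p = 0.0455) in untransformed lines. By code, the untransformed difference was -0.57 in the first and -3.14 in the second, neither past the test. Gp1ba fell with p210, with log2 fold changes of -3.86 ± 0.69 (adjusted p = 0.00138) in KO lines and -2.41 ± 0.67 (adjusted p = 0.0138) in WT lines, of which the WT call was lost without WT p210 replicate 3.

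Gp9 (chromosome 6, 87778072 to 87779768), a small subunit of the complex, was at 0.366, 0.0772, 0.145 and 0.935 CPM in KO p210 libraries, against 9.51, 8.60 and 1.01 CPM in WT p210 libraries. KO p210 replicate 4, at 0.935 CPM, came close to WT p210 replicate 3, at 1.01 CPM, though the groups did not overlap. Its log2 fold change with KO was -4.09 ± 0.90 (adjusted p = 0.0267) in p210 lines. Within the second code alone it was -0.99 (adjusted p = 0.74), against -5.43 (adjusted p = 0.0151) in the first code alone. Untransformed libraries held 14.4, 7.88 and 9.63 CPM in KO, against 21.6, 23.7, 103 and 66.3 CPM in WT, and this difference missed the threshold (adjusted p = 0.0706). Gp9 fell with p210, with log2 fold changes of -4.82 ± 0.91 (adjusted p = 0.00188) in KO lines and -3.07 ± 0.84 (adjusted p = 0.0134) in WT lines.

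Gp5 (chromosome 16, 30307686 to 30310779), the thrombin-cleaved subunit, held 0.993, 1.20, 3.20 and 1.99 CPM in KO p210 libraries, 14.6, 11.1 and 3.65 CPM in WT p210, 24.3, 14.3 and 17.3 CPM in KO untransformed and 39.8, 28.7, 186 and 80.4 CPM in WT untransformed libraries. KO p210 lay below WT p210 without overlap, but the difference did not pass the test (adjusted p = 0.0667). Gp5 was lower in KO than in WT untransformed lines (-2.17 ± 0.67, adjusted p = 0.049) and fell with p210 in KO (-3.31 ± 0.68, adjusted p = 0.00299) and WT lines (-3.09 ± 0.70, adjusted p = 0.00493), all as log2 fold changes. Gp1bb (chromosome 16, 18620319 to 18622403), the partner of Gp1ba in the complex, had 1 count in the 4 KO p210 libraries together, against 89 in WT p210 and 209 in KO untransformed libraries. All 89 came from WT p210 replicates 1 and 2, and replicate 3 had none. Scaled by depth, the WT p210 level was 115 times the KO p210 level (95% exact interval 20.1 to 4590), and the KO untransformed level 223 times (39.6 to 8850). These intervals cover counting error only. The fall with p210 in KO lines passed the test (adjusted p = 0.00451) and the genotype difference in p210 lines did not (adjusted p = 0.0588). Exons of Gp1bb share 593 bases with Sept5 on the same strand, and reads there were not assigned to either, so its level is uncertain.

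Without the library labelled KO p210 replicate 2, the genotype calls in p210 lines for Gp1ba, Gp9 and Mmrn1 had an adjusted p of 0.05 to 0.0759. Without WT p210 replicate 1 they had 0.0514 to 0.0899, and Gp9 had 0.0687 without KO p210 replicate 3. The log2 fold changes without the library labelled KO p210 replicate 2 were -3.52 for Gp1ba, -3.76 for Gp9 and -5.72 for Mmrn1, against -3.63, -4.09 and -5.62 with it. The untransformed calls of Gp1ba and Gp5 were also lost without any single KO untransformed library and without WT untransformed replicate 3 or 4 (adjusted p values of 0.0575 to 0.181 over the members lost). Libraries of other groups also moved these calls, to adjusted p values of at most 0.0599.

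**Figure D3:**
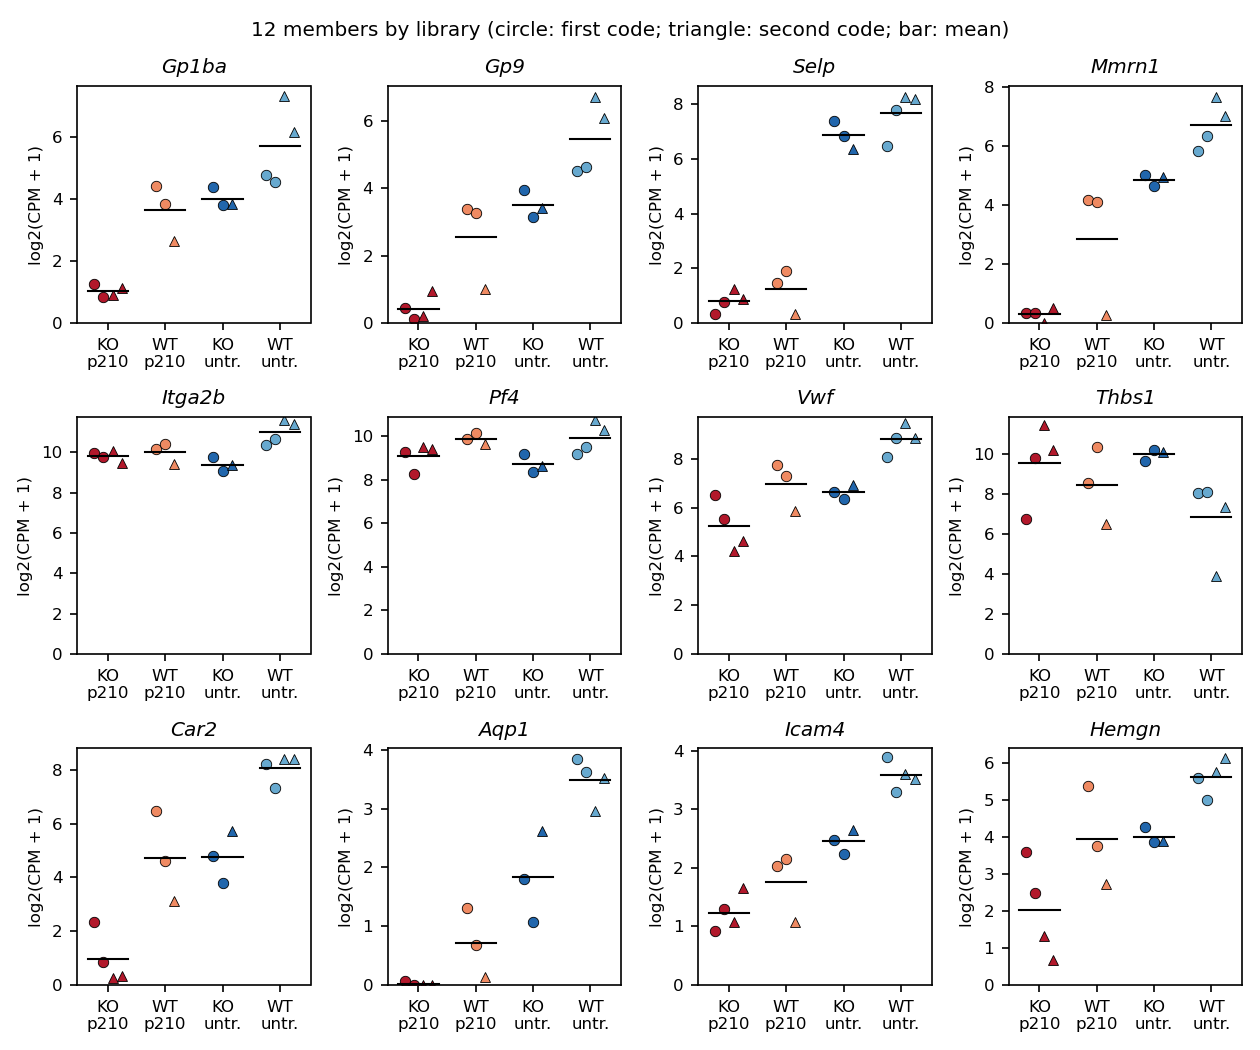
Levels of 12 members as log2(CPM + 1) (vertical axes) in each library of the 4 groups (horizontal axes), with circles for libraries of the first code, triangles for the second and bars for group means. The means of Gp1ba, Gp9, Mmrn1, Car2 and Aqp1 are lowest in KO p210 libraries, and the WT p210 library of the second code lies below the other WT p210 libraries for these genes.

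Among the other platelet receptors, Gp6, the collagen receptor, was at 0, 0.0386, 0.0582 and 0.0390 CPM in KO p210 libraries, 3.45, 2.89 and 0 CPM in WT p210, 6.18, 4.55 and 2.26 CPM in KO untransformed and 2.65, 1.53, 79.0 and 18.2 CPM in WT untransformed libraries. WT p210 replicate 3 had no count and so overlapped with KO p210, and WT untransformed replicate 3 held several times the level of any other library. Gp6 fell with p210 in KO lines (log2 fold change -6.70 ± 1.75, adjusted p = 0.011), and no other comparison of it passed the test. The KO p210 libraries held only 0, 1, 2 and 1 counts of Gp6, so the size of this fall is uncertain. Treml1, a receptor stored in platelet granules and displayed on activation, held 0.261, 0.193, 0.698 and 0.857 CPM in KO p210, 2.23, 1.48 and 0.355 CPM in WT p210, 9.67, 6.27 and 4.18 CPM in KO untransformed and 17.2, 13.96, 104 and 55.1 CPM in WT untransformed libraries. Its p210 groups overlapped, and its untransformed groups did not. Treml1 was lower with KO in untransformed lines (-2.83 ± 0.79, adjusted p = 0.0344) and fell with p210 in KO (-3.69 ± 0.81, adjusted p = 0.00442) and WT lines (-5.10 ± 0.90, adjusted p = 0.00105). The genotype call was lost without any 1 KO untransformed library and without WT untransformed replicate 3 or 4 (adjusted p at most 0.236 over all alternatives). The WT call held in all 26 alternatives (adjusted p at most 0.0444).

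Clec1b, the podoplanin receptor, followed the same order of means, with 0.560 ± 0.331 CPM in KO p210, 2.40 ± 2.23 CPM in WT p210, 4.15 ± 1.84 CPM in KO untransformed and 18.4 ± 23.4 CPM in WT untransformed libraries (mean ± SD), and no comparison passed the test. Exons of Clec1b share 184 bases with Clec9a on the same strand. The ADP receptor P2ry1 behaved otherwise, at 24.4, 10.5, 17.8 and 11.0 CPM in KO p210 libraries, against 6.86, 7.09 and 6.01 CPM in KO untransformed libraries. These groups did not overlap, and the log2 fold change with p210 was 1.26 ± 0.37 (adjusted p = 0.0188) in KO lines, a call lost without KO untransformed replicate 1 or 3. In WT lines it was 0.77 ± 0.35 (adjusted p = 0.102). P2ry12, the other ADP receptor, stayed under 1 CPM in all 14 libraries, with 8 counts over the KO p210 libraries, 16 over WT p210, 34 over KO untransformed and 27 over WT untransformed.

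The genes of the fibrinogen receptor stayed abundant. Itga2b (chromosome 11, 102453297 to 102470122), its alpha subunit, stood at 987, 877, 1079 and 702 CPM in KO p210 libraries, against 1153, 1344 and 683 CPM in WT p210 libraries. These groups overlapped, with a log2 fold change of -0.22 ± 0.32 (adjusted p = 0.761). In untransformed libraries it stood at 863, 533 and 650.1 CPM in KO, against 1299, 1599.9, 3146 and 2669 CPM in WT, with no overlap. The log2 fold change there was -1.68 ± 0.34 (adjusted p = 0.011), and it was -1.06 in the first and -2.19 in the second code alone, neither past the test. Itga2b kept its call there without any 1 library except KO untransformed replicate 2 (adjusted p = 0.0688). With p210 it was lower in WT lines (-1.04 ± 0.33, adjusted p = 0.025), although the groups overlapped, and the call was lost without WT p210 replicate 3 or WT untransformed replicate 3 or 4. The beta subunit Itgb3 passed no test, at 524 ± 206 CPM in KO p210, 597 ± 166 CPM in WT p210, 359 ± 42.2 CPM in KO untransformed and 610.0 ± 397 CPM in WT untransformed libraries.

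Among the granule cargo genes, Vwf, the ligand of the glycoprotein Ib complex, held 90.5, 45.8, 17.6 and 23.8 CPM in KO p210 libraries, 210.3, 157 and 57.5 CPM in WT p210, 97.4, 81.7 and 119 CPM in KO untransformed and 264, 459, 697 and 458 CPM in WT untransformed libraries. KO untransformed lay below WT untransformed without overlap (log2 fold change -2.24 ± 0.59, adjusted p = 0.0284), with like values in the first (-2.02) and second code (-2.31), neither past the test alone. In p210 lines the groups overlapped and the difference of -1.68 ± 0.55 (adjusted p = 0.109) did not pass the test. Its untransformed genotype call was lost without any 1 KO untransformed library or WT untransformed replicate 3 or 4 (adjusted p at most 0.236 over all alternatives). Vwf also fell with p210 in WT lines (-1.73 ± 0.58, adjusted p = 0.0323), a call lost without WT p210 replicate 2 or 3 or WT untransformed replicate 2, 3 or 4 (at most 0.123). Mmrn1 (chromosome 6, 60924976 to 60989378), which encodes the factor V-binding protein multimerin, was at 0.261, 0.270, 0 and 0.429 CPM in KO p210 and 16.9, 16.4 and 0.203 CPM in WT p210 libraries. WT p210 replicate 3 lay inside the KO p210 range. The log2 fold change with KO was -5.62 ± 1.11 (adjusted p = 0.0161), and it was -5.95 in the first code alone (adjusted p = 0.00204) and -0.10 in the second alone (adjusted p = 0.999).

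Mmrn1 stood at 31.1, 23.8 and 29.6 CPM in KO untransformed libraries, against 56.2, 79.4, 200.5 and 127 CPM in WT untransformed libraries. The groups did not overlap, but this difference did not pass the test (adjusted p = 0.125). With p210 it fell in KO (-6.94 ± 1.12, adjusted p = 0.000751) and WT lines (-3.36 ± 0.93, adjusted p = 0.0133). Selp, P-selectin of the granule membrane, fell with p210 in both genotypes. It was at 0.261, 0.695, 1.40 and 0.857 CPM in KO p210 libraries, against 169, 114 and 81.0 CPM in KO untransformed libraries. In WT lines it was at 1.79, 2.72 and 0.254 CPM with p210, against 87.1, 219.7, 308 and 293 CPM without. Every p210 library lay under 3 CPM and every untransformed library above 80 CPM, and the log2 fold changes were -7.15 ± 0.68 (adjusted p = 3.42e-05) in KO and -7.09 ± 0.74 (adjusted p = 4.63e-05) in WT lines. Its calls held in all 26 alternatives, with an adjusted p of at most 0.0195 in KO and 0.011 in WT lines. The genotypes did not differ past the test for Selp, in p210 (adjusted p = 0.477) or in untransformed lines (adjusted p = 0.26).

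The platelet chemokine Pf4 stood at 624, 305, 735 and 674 CPM in KO p210, 935, 1147 and 788 CPM in WT p210, 585, 331 and 398 CPM in KO untransformed and 585, 718, 1735 and 1271 CPM in WT untransformed libraries. KO lay below WT in both states without overlap, though untransformed replicates 1 of both genotypes were level. With KO, Pf4 differed by -0.71 ± 0.38 (adjusted p = 0.329) (log2) in p210 lines and -1.30 ± 0.40 (adjusted p = 0.0475) in untransformed lines, of which the untransformed one passed the test. That call was lost in 17 of the alternatives that give this comparison, which the block by cell line does not. Among them were those without any 1 KO untransformed library, WT untransformed replicate 3 or 4, KO p210 replicate 1, 3 or 4, or WT p210 replicate 1 or 2. The p210 comparisons of Pf4 did not (adjusted p = 0.427 in KO and adjusted p = 0.752 in WT lines). Its neighbour on chromosome 5, the chemokine Ppbp, was far lower, at 7.05, 1.04, 5.09 and 4.72 CPM in KO p210, 33.7, 5.10 and 12.5 CPM in WT p210, 20.0, 18.3 and 6.76 CPM in KO untransformed and 8.08, 3.49, 141 and 31.8 CPM in WT untransformed libraries, and passed no test. Thbs1, the adhesive glycoprotein thrombospondin 1, stood at 106, 887, 2832 and 1157 CPM in KO p210, 375, 1314 and 87.9 CPM in WT p210, 799.7, 1165 and 1097 CPM in KO untransformed and 263, 277, 14.1 and 162 CPM in WT untransformed libraries. KO untransformed lay above WT untransformed without overlap, yet the difference of 2.51 ± 1.08 (adjusted p = 0.131) did not pass the test, and the p210 groups overlapped.

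Among genes of the cytoskeleton and of secretion, Tubb1, the beta-tubulin of the platelet marginal band, was low throughout. It had 0.0522, 0.0772, 0 and 0.117 CPM in KO p210, 0.188, 0.504 and 0 CPM in WT p210, 2.18, 2.39 and 0.707 CPM in KO untransformed and 0.449, 0.113, 9.14 and 3.41 CPM in WT untransformed libraries, and fell with p210 in KO lines (-4.80 ± 1.47, adjusted p = 0.0234). That call was lost without any 1 of 5 libraries of its comparison (KO p210 replicates 1 to 3 and KO untransformed replicates 1 and 2, highest adjusted p = 0.116). Rab27b, a GTPase of granule release, stood at 216, 162, 139 and 154 CPM in KO p210 libraries, against 69.3, 47.9 and 67.7 CPM in KO untransformed libraries, a rise with a log2 fold change of 1.45 ± 0.48 (adjusted p = 0.0338). Its KO untransformed level was also below that of WT untransformed libraries, at 105, 95.6, 424 and 250.0 CPM (-1.83 ± 0.49, adjusted p = 0.0295), and its p210 groups overlapped, with WT p210 at 145, 176 and 314 CPM. The p210 call was lost without KO p210 replicate 1 or 2 or any 1 KO untransformed library, and the genotype call without any 1 KO untransformed library or WT untransformed replicate 3 or 4 (adjusted p values at most 0.185 and 0.236 over all alternatives). Plek, pleckstrin, was among the most abundant members at 907 ± 213 CPM in KO p210, 1035 ± 102 CPM in WT p210, 632 ± 26.2 CPM in KO untransformed and 1010 ± 410 CPM in WT untransformed libraries, and passed no test.

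Of the transcription factors, Fli1, an ETS factor of megakaryocyte genes, stood at 107, 99.2, 101 and 109.9 CPM in KO p210, 110.1, 115 and 101 CPM in WT p210, 94.3, 105 and 102 CPM in KO untransformed and 109, 96.4, 146 and 131 CPM in WT untransformed libraries. Nfe2, the factor that drives platelet release, held 280.3 ± 16.6 CPM in KO p210, 254 ± 55.4 CPM in WT p210, 267 ± 18.4 CPM in KO untransformed and 191 ± 60.0 CPM in WT untransformed libraries. Neither passed a test in any comparison. The tetraspanin Cd9 rose with p210, at 300.2, 242, 149.7 and 238 CPM in KO p210 libraries, against 98.8, 122 and 86.7 CPM in KO untransformed libraries. In KO lines its log2 fold change was 1.18 ± 0.27 (adjusted p = 0.0051), without overlap of the groups. In WT lines it was 0.71 ± 0.26 (adjusted p = 0.0451), with overlap, and this call was lost in 17 of 26 alternatives, among them those without any 1 of the libraries KO p210 replicates 2 and 4, WT p210 replicates 2 and 3, all KO untransformed and WT untransformed replicates 1, 2 and 4.

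In the erythroid list, 12 of 20 members had too few counts for a test. Slc4a1, the band 3 anion exchanger, and Alas2, the erythroid enzyme that begins haem synthesis, had no counts in any library. A group with 0 counts allows up to 0.0198 to 0.0369 CPM (3 counts over the group, counting error only). The alpha globin gene Hba-a1 had 70 counts in all, at 1.83, 0.888, 0.0291 and 0 CPM in KO p210 libraries, and Hba-a2 had 1 count. The 59 counts of Hba-a1 in KO p210 libraries, against 0 in KO untransformed libraries, were 35, 23, 1 and 0 in replicates 1 to 4. Pooled over the group, they lie at least 18.4-fold above a floor of 3 counts in KO untransformed libraries. That bound covers counting error only and does not hold for replicates 3 and 4, and the gene was not tested. Of the beta globins, Hbb-bs had 38 counts, with 0.627, 0.0336 and 0 CPM in WT p210 libraries and none in KO p210. The globin genes of each pair are near-identical, and reads that match more than 1 place were not counted, so their levels are uncertain. Ank1 (ankyrin, 66 counts), Epb42 (band 4.2, 18), Ermap (13), Car1 (carbonic anhydrase 1, 10), the Rh genes Rhd (10) and Rhag (5), and Trim10 (9) were under 1 CPM in every library. All 9 counts of Trim10 lay in WT p210 libraries and all 18 of Epb42 in WT untransformed libraries.

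The 8 erythroid members with a test are Hbb-bt, Sptb, Tmod1, Aqp1, Icam4, Car2, Blvrb and Hemgn, and they passed the filter through the groups in which they are expressed, so they do not stand for the list. With KO against WT, 2 of them were lower in p210 lines and 3 in untransformed lines, and 0 were higher in either. Over all genes tested, 3.56% were lower and 0.882% higher in p210 lines, and 6.5% lower and 8.73% higher in untransformed lines. With p210 against untransformed, 3 were lower in KO lines and 0 higher, where 18% of all genes were lower and 19.2% higher. In WT lines 4 were lower and 1 higher, where 17.6% of all genes were lower and 21.9% higher. With the cell line as a block 3 were lower in KO lines (11.8% of all genes) and 2 in WT lines (11.4% of all genes), and 0 were higher in either. In WT lines Hbb-bt (adjusted p = 0.337), Car2 (0.0653) and Sptb (0.267) lost their calls under the block. Of these 8, WT untransformed libraries held the highest mean of 6 and KO p210 libraries the lowest of 5, and the shares over all genes were not counted.

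Car2 (chromosome 3, 14886273 to 14900770), carbonic anhydrase 2, is shared by red cells and other blood lineages and was the most abundant erythroid member in WT untransformed libraries, at 431 ± 128 TPM. It stood at 4.07, 0.811, 0.204 and 0.273 CPM in KO p210 libraries, against 86.6, 23.3 and 7.66 CPM in WT p210 libraries, and at 26.8, 12.8 and 51.2 CPM in KO untransformed libraries, against 292, 159.9, 337 and 335 CPM in WT untransformed libraries. KO lay below WT in both states without overlap, and KO p210 replicate 1 stood above the other 3 of its group. The log2 fold changes with KO were -5.02 ± 1.01 (adjusted p = 0.017) in p210 and -3.21 ± 0.94 (adjusted p = 0.0408) in untransformed lines, and with p210 -4.64 ± 1.00 (adjusted p = 0.00388) in KO and -2.84 ± 0.92 (adjusted p = 0.0289) in WT lines. The WT call was lost without WT p210 replicate 2 or 3 or WT untransformed replicate 4. By code, the KO difference in p210 lines was -4.57 in the first and -5.02 in the second, and in untransformed lines -3.52 and -2.75. The sizes were alike in both codes, with adjusted p values of 0.05 to 0.117 from 1 or 2 libraries a group.

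Aqp1 (chromosome 6, 55336432 to 55348555), the water channel of the red cell membrane, had 1 count over the KO p210 libraries, against 67 over WT p210. It stood at 1.47, 0.604 and 0.101 CPM in WT p210, 2.50, 1.10 and 5.17 CPM in KO untransformed and 13.3, 11.3, 6.78 and 10.5 CPM in WT untransformed libraries. From pooled counts, the WT p210 level was 86.5 times that of KO p210 (95% exact interval 15 to 3470), and the KO untransformed level 369 times (65.8 to 14600). These intervals cover counting error only, and 47, 18 and 2 of the 67 counts lay in WT p210 replicates 1 to 3. Over libraries, the edgeR test gave adjusted p = 0.0144 for KO against WT in p210 lines. It gave adjusted p = 0.000297 for p210 against untransformed in KO lines. In WT lines Aqp1 fell with p210 (log2 fold change -3.81 ± 0.80, adjusted p = 0.00313), and this call held in all 26 alternatives (adjusted p at most 0.0433). Without the library labelled KO p210 replicate 2, the genotype calls of Car2 and Aqp1 in p210 lines had adjusted p values of 0.0513 to 0.0618, and without WT p210 replicate 1 they had 0.0561 to 0.0692.

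Icam4, the Landsteiner-Wiener blood group protein, held 0.888, 1.47, 1.11 and 2.14 CPM in KO p210, 3.11, 3.43 and 1.12 CPM in WT p210, 4.59, 3.68 and 5.28 CPM in KO untransformed and 13.9, 8.77, 11.2 and 10.5 CPM in WT untransformed libraries. The p210 groups overlapped, and the untransformed groups did not. Icam4 was lower with KO in untransformed lines (-1.29 ± 0.38, adjusted p = 0.0413) and fell with p210 in KO (-1.69 ± 0.37, adjusted p = 0.00453) and WT lines (-2.11 ± 0.40, adjusted p = 0.00148). Tmod1, which caps actin in the membrane skeleton, had 0, 0.0772, 0.262 and 0.819 CPM in KO p210, 0.753, 0.269 and 0.254 CPM in WT p210, 0, 0.118 and 0 CPM in KO untransformed and 1.35, 0.604, 0.933 and 1.10 CPM in WT untransformed libraries. KO p210 libraries ranged widely and overlapped with WT p210, and the untransformed groups did not overlap. It had 3 counts over KO untransformed and 140 over WT untransformed libraries. The WT level was 30.3 times the KO level (95% exact interval 10.2 to 149, counting error only), with adjusted p = 0.0294 over libraries. KO p210 libraries held 32 counts, and the KO untransformed level was 0.1 times theirs (0.0196 to 0.32, counting error only), a difference that missed the threshold over libraries (adjusted p = 0.0885). The untransformed calls of Car2, Icam4 and Tmod1 were lost without any 1 KO untransformed library and without WT untransformed replicate 3 or 4 (adjusted p values of 0.0509 to 0.163). Car2 and Icam4 had 0.0532 to 0.0537 when the library labelled KO p210 replicate 2 was left out, Icam4 had 0.062 without WT untransformed replicate 1 and Car2 0.0506 without WT untransformed replicate 2.

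Sptb, beta spectrin, was at 0.627, 0.134 and 0.0507 CPM in WT p210 libraries, against 1.12, 0.113, 5.90 and 2.26 CPM in WT untransformed libraries, and at most 0.705 CPM in KO libraries. The WT groups overlapped, and its fall with p210 in WT lines (-3.04 ± 1.06, adjusted p = 0.0389) was lost in 16 of 26 alternatives, among them those without the library labelled KO p210 replicate 2, WT p210 replicate 2 or 3, KO untransformed replicate 1 or 3, or WT untransformed replicate 3 or 4. Of the tested erythroid members, the adult beta globin Hbb-bt was the 1 called higher, with p210 in WT lines. It stood at 3.33, 0.0672 and 6.39 CPM in WT p210, against 0.269, 0.510, 0.220 and 0.150 CPM in WT untransformed libraries. WT p210 replicate 2 lay below all WT untransformed libraries while replicates 1 and 3 lay above them, and the log2 fold change of 3.46 ± 1.16 (adjusted p = 0.0336) was lost in 12 of 26 alternatives, among them those without WT p210 replicate 1 or 3 or WT untransformed replicate 1, 3 or 4. KO p210 libraries held 0.522, 0.0386, 0.0291 and 0 CPM of Hbb-bt and KO untransformed libraries 0.0454, 0 and 0.0589 CPM. Hemgn, a nuclear protein of blood progenitors, held 11.0, 4.63, 1.51 and 0.585 CPM in KO p210, 41.1, 12.5 and 5.63 CPM in WT p210, 18.3, 13.6 and 13.8 CPM in KO untransformed and 47.3, 30.9, 52.7 and 69.3 CPM in WT untransformed libraries and passed no test. Blvrb, biliverdin reductase B, was at 34.4 ± 16.3 CPM in KO p210, 28.3 ± 8.47 CPM in WT p210, 36.5 ± 9.96 CPM in KO untransformed and 31.9 ± 4.69 CPM in WT untransformed libraries, without a difference past the test.

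The genotype effects in the p210 and the untransformed state were compared by the interaction in the same fit. Of the 31 tested members 0 passed, where 0.0345% of all genes did. At an unadjusted p under 0.05, for which the share over all genes was not counted, there were 3 megakaryocyte and 2 erythroid members. These were Itga2b (interaction 1.46 ± 0.46, adjusted p = 0.247), Aqp1 (adjusted p = 0.272), Tmod1 (adjusted p = 0.294), Mmrn1 (-3.58 ± 1.39, adjusted p = 0.3) and Rab27b (1.49 ± 0.66, adjusted p = 0.344). DESeq2 called 1 megakaryocyte member and limma-voom 0, and neither called an erythroid one. Of Itga2b, the difference with KO was larger in size in untransformed than in p210 lines, and of Mmrn1 it was larger in p210 lines, but neither interaction passed the adjusted threshold.

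Spread within the KO p210 group differed by gene. The SD of log2(CPM + 1) over its 4 libraries had a median of 0.314 over the 23 megakaryocyte and platelet members and 0.352 over the 8 tested erythroid members, beside 0.181 over all genes tested. In the other groups these medians were 0.671 and 0.585 in WT p210 (all genes 0.184), 0.317 and 0.220 in KO untransformed (0.112), and 0.901 and 0.312 in WT untransformed libraries (0.141). The median member thus varied more than the median gene in every group, and the megakaryocyte and platelet members varied most in WT untransformed libraries. A gene near 0 can vary little on this scale.

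**Figure D4:**
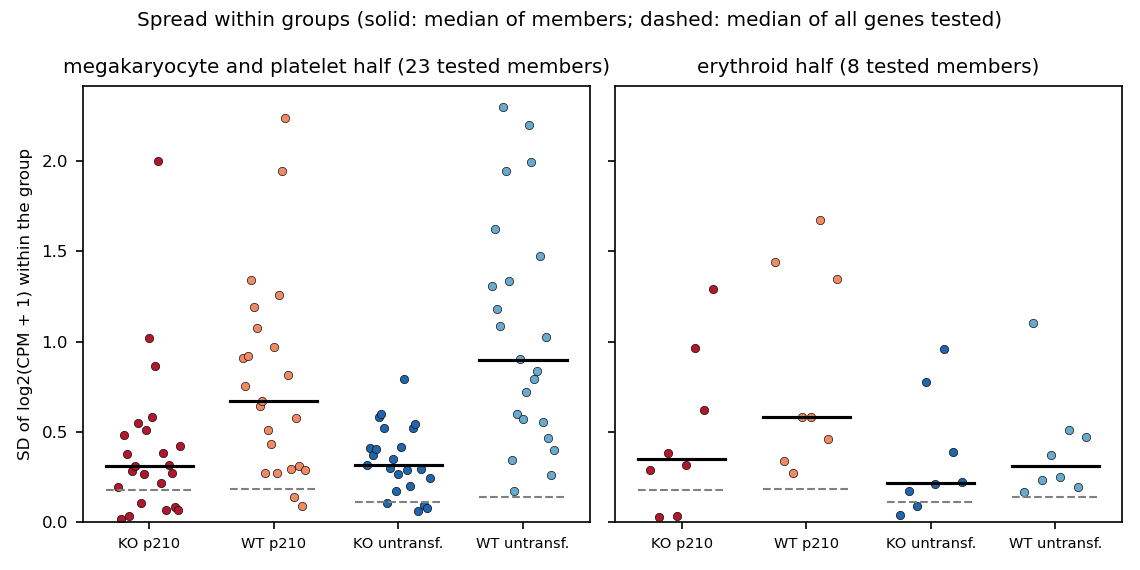
SD of log2(CPM + 1) within each group (vertical axis) for each tested member (points, in 4 groups along the horizontal axis), with solid bars at the median of the list and dashed bars at the median of all genes tested. In KO p210 libraries most points lie under 0.6, and Thbs1 at 2.00 is the highest.

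Within KO p210 libraries Thbs1 was the most variable member, with the highest library 26.7 times the lowest, and replicate 1 at 106 CPM against 887 to 2832 CPM in the others. Vwf differed 5.14-fold and Ppbp 6.77-fold between the highest and lowest KO p210 library. Hemgn had the largest SD of the erythroid members, 1.29, and Car2 had 0.962, both with replicate 1 highest. Fli1 (1.11-fold), Nfe2 (1.13-fold) and Itga2b (1.54-fold) were the most even. The library labelled KO p210 replicate 2 was the highest of its group for 0 of the 23 megakaryocyte and platelet members and the lowest for 9, among them Pf4 and Ppbp. The shares over all genes were not counted. Its mean log2(CPM + 1) over the megakaryocyte and platelet members was 3.93, against 4.15 to 4.16 in the other KO p210 libraries. WT p210 libraries had 5.16 in replicates 1 and 2 and 4.28 in replicate 3. Over these members the library labelled KO p210 replicate 2 thus lay below every WT p210 library, while its Cdk6 level lay inside their range.

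WT untransformed libraries divided by code. Replicate 3 held the highest level of all 14 libraries for 18 of the 23 megakaryocyte and platelet members. How many of all genes tested were highest in that library was not counted. The mean log2(CPM + 1) over the megakaryocyte and platelet members was 7.07 in replicate 3 and 6.49 in replicate 4, against 5.51 in replicate 1 and 5.40 in replicate 2. The 3 KO untransformed libraries had 5.50, 5.25 and 5.07, so the first-code WT libraries lay near them. The erythroid members did not divide that way, with 3.64, 3.20, 3.76 and 3.69 in WT untransformed replicates 1 to 4, above the 2.38, 2.18 and 2.53 of the KO untransformed libraries. Within the first code alone, 0 of the 7 untransformed megakaryocyte calls passed the test, and within the second, with 1 KO library, 0 did.

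**Figure D5:**
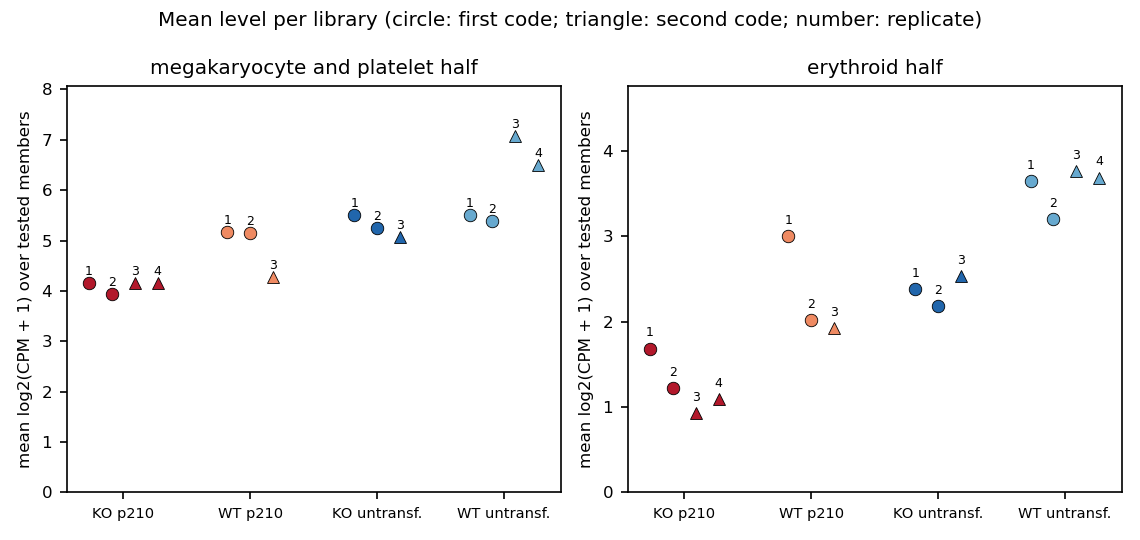
Mean log2(CPM + 1) over the tested members of each list (vertical axes) for each library, by group (horizontal axes), with circles for the first code, triangles for the second and the replicate number above each point. WT untransformed replicates 3 and 4 (7.07 and 6.49) stand apart for the megakaryocyte and platelet members, and WT p210 replicate 3 (4.28) lies near the KO p210 libraries.

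Markers of other lineages moved with some of these libraries. The 12 mast cell and basophil markers summed to 7748 to 11641 CPM in KO p210, 5076 to 15163 CPM in WT p210, 2987 to 3334 CPM in KO untransformed and 1635 to 7689 CPM in WT untransformed libraries. The highest WT untransformed library was replicate 3, in which the mast cell proteases Mcpt4 and Cma1 stood at 1293 and 777 CPM, against 0.201 to 19.9 and 0.0502 to 11.7 CPM in the other 3. Other markers of this list went the other way there. Mcpt8 and Hdc stood at 12.2 and 27.2 CPM, against 25.1 to 121 and 93.0 to 188 CPM in the other 3. In p210 libraries Mcpt4 was at most 0.201 CPM, while Cpa3 stood at 1384 to 7700 CPM, so the sums do not follow each marker. The 16 neutrophil and monocyte markers summed to 7415 to 24423 CPM in KO p210 and 2206 to 7803 CPM in WT p210 libraries, and to 24112 to 33190 CPM in KO untransformed and 560 to 10965 CPM in WT untransformed libraries, of which replicate 3 was the lowest. All 16 had a positive log2 fold change with KO in both states. Of them 0 passed the test in p210 lines, where 0.882% of all genes were higher. In untransformed lines, where 8.73% of all genes were higher, 2 did (Lyz2, 2.92 ± 0.68, adjusted p = 0.018, and Itgam, 2.26 ± 0.65, adjusted p = 0.0385). Their part in the lower megakaryocyte and erythroid levels was not tested. The 12 lymphoid markers summed to at most 57.1 CPM, with Cd3e and Cd8a at 0 throughout. Of 12 endothelial and stromal markers 5 were tested, and Cldn5 and Lum had no counts. Tek was lower with KO in p210 lines (adjusted p = 0.0174), where 3.56% of all genes were lower. Kdr was higher with KO in untransformed lines (adjusted p = 0.0415), where 8.73% of all genes were higher. Tek stood at 0, 0.0772, 0.116 and 0 CPM in KO p210 libraries, against 0.0314, 7.05 and 7.66 CPM in WT p210 libraries. WT p210 replicate 1 thus lay inside the KO p210 range. Lyz2, Itgam, Tek and Kdr are named after their values were seen.

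Of the wider regulators of both lineages (23 genes, all tested), 3 were lower with KO in p210 lines and 0 higher (3.56% and 0.882% of all genes). Gata1, the factor both lineages need, stood at 0.470, 0.116, 0.0873 and 0.117 CPM in KO p210 libraries, against 6.78, 4.53 and 0.457 CPM in WT p210 libraries, and at 8.90, 6.94 and 5.15 CPM in KO untransformed libraries, against 27.7, 11.98, 41.8 and 23.6 CPM in WT untransformed libraries. WT p210 replicate 3 lay inside the KO p210 range, as it did for Mmrn1, and the untransformed groups did not overlap. The log2 fold changes were -4.41 ± 0.83 (adjusted p = 0.0125) with KO in p210 lines, -1.91 ± 0.72 (adjusted p = 0.0891) in untransformed lines, and -5.23 ± 0.84 (adjusted p = 0.000703) with p210 in KO and -2.73 ± 0.75 (adjusted p = 0.0128) in WT lines. Bcl11a, a repressor of fetal globins in human red cells (-4.85 ± 0.87, adjusted p = 0.0105), and Nfia (-3.96 ± 0.76, adjusted p = 0.014) were the others lower with KO in p210 lines. In untransformed lines Zfpm1, the GATA1 partner, was lower with KO (-1.47 ± 0.31, adjusted p = 0.013), as was Gata2 (-0.85 ± 0.20, adjusted p = 0.0183), and Mrtfa, a coactivator of serum response factor, was higher (0.54 ± 0.12, adjusted p = 0.0151). In all, 2 were lower and 3 higher there (6.5% and 8.73% of all genes).

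Tal1, a partner of GATA1, and Klf1, the red cell factor, passed no test in any comparison. Tal1 was at 81.9 to 147 CPM in KO p210, 153 to 225 CPM in WT p210, 89.8 to 107 CPM in KO untransformed and 127 to 253 CPM in WT untransformed libraries, and Klf1 stayed under 1 CPM in all of them. With p210 in KO lines 6 of 23 regulators rose and 8 fell (19.2% and 18% of all genes), led by Mafg, a partner of Nfe2 (1.67 ± 0.18, adjusted p = 5.77e-05), Etv6 (-0.65 ± 0.07, adjusted p = 6.68e-05) and Lmo2 (-1.51 ± 0.19, adjusted p = 0.000174). In WT lines 6 rose and 7 fell (21.9% and 17.6% of all genes), led by Etv6 (-0.73 ± 0.07, adjusted p = 3.04e-05), Lmo2 (-1.77 ± 0.20, adjusted p = 8.05e-05) and Mrtfa (1.02 ± 0.12, adjusted p = 8.41e-05). Etv6 and Lmo2 fell in both genotypes, while the members Fli1 and Nfe2 passed no test.

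Among 33 further megakaryocyte and platelet genes tested, 2 were lower with KO in p210 lines and 0 higher (3.56% and 0.882% of all genes). Alox12, platelet lipoxygenase, was at 0, 0.0386, 0 and 0.0390 CPM in KO p210 and 11.2, 9.34 and 0 CPM in WT p210 libraries (adjusted p = 0.0255). WT p210 replicate 3 had no count and overlapped with the KO p210 libraries. In untransformed lines, where 8.73% of all genes were higher and 6.5% lower, 3 were higher (Cd63, 0.62 ± 0.11, adjusted p = 0.00698, first among them) and 3 lower, led by the thrombin receptor F2r (-1.72 ± 0.36, adjusted p = 0.0123) and the adaptor Lat (-1.81 ± 0.43, adjusted p = 0.0193). With p210, 11 rose and 10 fell in KO lines (19.2% and 18% of all genes), and 8 rose and 9 fell in WT lines (21.9% and 17.6% of all genes). Myh9, non-muscle myosin, rose in both (1.27 ± 0.16, adjusted p = 0.000129 in KO and 1.13 ± 0.15, adjusted p = 0.000174 in WT lines). F2r (3.03 ± 0.38, adjusted p = 0.00017 in KO and 1.40 ± 0.34, adjusted p = 0.00688 in WT lines) and Cd63 (0.59 ± 0.11, adjusted p = 0.00138 in KO and 1.03 ± 0.11, adjusted p = 3.86e-05 in WT lines) also rose in both.

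Among 22 further erythroid genes tested, 5 were lower with KO in p210 lines and 0 higher (3.56% and 0.882% of all genes), among them Ypel4 (-2.72 ± 0.49, adjusted p = 0.0107) and the haem enzyme Alad (-1.03 ± 0.24, adjusted p = 0.0336). In untransformed lines, where 6.5% of all genes were lower and 8.73% higher, 3 were lower, among them the haem enzyme Urod (-0.35 ± 0.07, adjusted p = 0.0122) and Xk (-0.60 ± 0.15, adjusted p = 0.0249), and 1 was higher, the mitochondrial iron importer Slc25a37 (0.78 ± 0.23, adjusted p = 0.0384). With p210, 3 rose and 10 fell in KO lines (19.2% and 18% of all genes), and 3 rose and 9 fell in WT lines (21.9% and 17.6% of all genes). The haem enzyme Ppox rose in both (1.00 ± 0.11, adjusted p = 7.41e-05 in KO and 1.06 ± 0.11, adjusted p = 3.75e-05 in WT lines), and Urod fell in both (-0.36 ± 0.07, adjusted p = 0.00258 in KO and -0.53 ± 0.07, adjusted p = 0.000219 in WT lines). Mgst3 had -1.24 ± 0.19 (adjusted p = 0.000538) in KO and -0.43 ± 0.19 (adjusted p = 0.0929) in WT lines, and Epb41 had -0.29 ± 0.12 (adjusted p = 0.0752) in KO and -0.84 ± 0.12 (adjusted p = 0.000301) in WT lines, with interactions of -0.80 ± 0.27 (adjusted p = 0.265) and 0.55 ± 0.17 (adjusted p = 0.237). Haem synthesis genes thus moved in both directions, and Cldn13 and Hbb-bh1 had no counts in any library.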

How the data were processed

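Bulk RNA from 14 libraries was sequenced with 50-base reads. Per the submitters' processing notes the reads were trimmed with Trimmomatic, aligned with STAR and counted with featureCounts, and the aligner's version is not given in the sources used here. Per the file headers, the deposited counts per gene came from featureCounts 1.5.1 over exons of GENCODE M13 (GRCm38), reverse stranded and without multi-mapping or multi-overlapping reads, so near-identical and overlapping genes lose reads. The deposited TPM values were recomputed from those counts to within 0.05. TPM was used only for levels between genes.

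Counts were fitted for all 14 libraries in 1 model with a term for group (edgeR 4.0.16, limma 3.58.1, R 4.3.3, quasi-likelihood F-test, TMM scaling). The filter on low counts had a minimum of 10 and a total minimum of 15 and left 14512 genes, over which p-values were adjusted by Benjamini-Hochberg, with a threshold of 0.05. SE is the log2 fold change divided by the root of F. CPM is scaled by TMM, and log2(CPM + 1) was used for spread and plots. Ratios with 1 to 3 counts in a group have exact 95% intervals, which cover counting error only. The fit was tested on simulated data. Alternatives, 26 in all, included DESeq2 1.42.0, limma-voom, other scalings, blocks, single codes and each library left out. Gene symbols came from the table supplied with the reference (50376 of 50686 genes matched), and promoter windows from RefSeq (GRCm38.p6).

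The members and lists were chosen with earlier results of these data known. Every member is named, and from the other lists at most 3 called genes a comparison, by adjusted p, of which some are not reported here. The cell line served as a block because code and letter in the descriptions were read as a line. Deviations from group means correlated at 0.114 to 0.163 in the 3 WT line pairs and 0.021 to 0.08 in the 3 KO line pairs.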

Additional observations from a re-analysis of the deposited data

Results flagged for a closer look

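In 62 groups of 4 libraries looked at, 6 held 1 library that stood far from the others by Dixon's criterion. For normally distributed values chance gives this in about 5% of groups. That rate does not hold for CPM near the floor, where 1 count with none in the other libraries always meets the criterion. The 6 therefore cannot be set against it. In KO p210 libraries, replicate 1 stood high for Car2 (4.07 CPM), Hbb-bt (0.522 CPM) and Aqp1 (0.0522 CPM, which is 1 count). In the same group, replicate 3 stood high for Gp1bb (0.0291 CPM, also 1 count) and replicate 4 for Nfe2 (305 CPM, against 270.2 CPM in the lowest). In WT untransformed libraries, replicate 3 stood high for Blvrb (38.9 CPM). The Gp1bb and Aqp1 values rest on 1 count each.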

How the results depend on the processing

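Of 1128 values of members past the test under the alternatives, 851 stayed past it, 277 did not and 0 changed direction. DESeq2 kept 44 of 44 calls and limma-voom 27. Counts of members called moved by over 1.5 times as follows, and for each the cause was not tested. For KO against WT in p210 lines, the 3 megakaryocyte and platelet calls became 7 with DESeq2, 0 with limma-voom, 1 with a replicate block, 8 in the first code alone, 0 in the second, 0 with only the groups compared and 1 without the 2 libraries in doubt (the library labelled KO p210 replicate 2 and WT untransformed replicate 3, an alternative chosen after seeing the data), with 0 to 6 as each library was left out. The 2 erythroid calls became 4, 0, 1, 0, 1, 0 and 0 under these same settings, and 0 to 4 with a library left out. For KO against WT in untransformed lines, the 7 calls became 1 without the filter, 2 with a replicate block, 3 with code as a term, 1 in the first code, 0 in the second and 1 without the 2 libraries in doubt, with 0 to 10 as libraries were left out. The 3 erythroid calls became 1 without the filter, 5 with limma-voom, 0 with a replicate block, 0 in either code, 5 with only the groups compared and 0 without the 2 libraries in doubt, with 0 to 4. For p210 against untransformed in KO lines, the 12 calls became 7 with limma-voom, 7 with a replicate block by line and 1 in the second code, with 9 to 14, and the 3 erythroid calls 5 with DESeq2 and 1 in the second code, with 3 to 5. In WT lines the 9 calls became 5 with a replicate block, 3 by line, 5 in the first code and 5 with only the groups compared, with 5 to 13. The 5 erythroid calls became 2 without the filter, 3 with a replicate block, 2 by line, 2 in the first code, 3 in the second, 3 with only the groups compared and 2 without the 2 libraries in doubt, with 2 to 5. Interaction calls, 0 in both lists, became 1 with DESeq2 and 2 in the first code for megakaryocyte and platelet members, and stayed 0 to 0 with any library left out. Same-numbered libraries of the 2 genotypes correlated at -0.081 to 0.119 over 6 pairs. The KO line pairs reached only 0.021 to 0.08, so these correlations cannot decide whether the numbers pair genotypes. Totals of 20270348 counts or more put 1 count at up to 0.0522 CPM, which limits statements on members near 0.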
